A study of Mus musculus with 12 samples.

Results

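The amacrine cell markers described here were 9 genes, namely Gad1, Gad2, Slc32a1, Slc6a9, Chat, Th, Tfap2a, Calb2 and Pcp4. They were chosen by gene symbol, as established markers of retinal amacrine cells. The rule that picks them uses no measured value, but the list was chosen with earlier results of these data known. Shares of all genes printed beside counts of these markers are therefore a description. All 9 were present among the 35976 genes of the count table, and all 9 had at least 1 count and entered the tests. Amacrine cells are the inhibitory interneurons of the inner retina, and they shape the signal that passes from bipolar cells to retinal ganglion cells. Most of them release GABA or glycine, and small populations also release acetylcholine or dopamine. The markers cover these transmitters (Gad1, Gad2, Slc32a1, Slc6a9, Chat and Th), a transcription factor of the lineage (Tfap2a) and a pair of calcium-linked proteins of amacrine subtypes (Calb2 and Pcp4). Several of these genes are not exclusive to amacrine cells. Calb2 and Pcp4 in particular are also known in retinal ganglion cells, so a level measured in whole retina is not a level in amacrine cells alone.

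The study profiled whole mouse retina by 3′ mRNA sequencing in 12 libraries, 3 in each of 4 groups. C57BL/6 mice (WT) were kept in normoxia at 21% oxygen or put through oxygen-induced retinopathy (OIR), in which pups breathe 75% oxygen from postnatal day 7 to 12 and then return to room air, so that the poorly vascularised retina becomes relatively hypoxic. WT retinas were taken at postnatal day 15, which for OIR was 3 days after the return to room air. The other 2 groups came from Caspase1 knockout (Casp1 KO) mice in normoxia and 3 days after OIR; their age and oxygen level, the allele deleted and its background strain were not given in the sources used here. The comparisons ask how OIR moved these genes in each genotype, and whether it moved them differently between genotypes.

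Library totals ranged from 3391203 to 22815830 counts, with WT normoxia replicate 2 the deepest. Every pair of replicates differed by more than sampling noise (a chi-square of 3.49 to 15.2 for each degree of freedom), so no library was counted as a duplicate of another. Whether replicates were separate animals or pools was not given, so p-values refer to these samples only. The edgeR fits printed here took the variance of a gene almost wholly from a value shared across genes. Their p-values and intervals therefore do not measure a gene's own spread between replicates. Very small p-values express more certainty than 3 libraries a group can give for a single gene. Casp1 itself went against the labels, with 7 counts over the 6 libraries labelled WT and 126 over the 6 labelled Casp1 KO. Single libraries held 0 to 3 counts under the WT label, with 0 in the deepest, and 10 to 45 under the Casp1 KO label. The deleted part of the gene was not given, so 3′ tags may fall outside it and these counts do not settle the labels. Both genotypes are named below as labelled. WT OIR replicate 3 stood apart from its group, and leaving it out raised the number of genes called between the genotypes in OIR from 131 to 815.

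OIR lowered the GABA genes Gad1, Gad2 and Slc32a1 and the calcium-linked genes Calb2 and Pcp4 in the libraries labelled WT. Under the Casp1 KO label, it lowered Calb2 and Pcp4, while Gad1, Gad2 and Slc32a1 kept overlapping groups. Levels are given as CPM, counts scaled to the size of each library with TMM factors over all 12 libraries, and a gene is called where the adjusted p of edgeR's quasi-likelihood test (Benjamini-Hochberg over all genes tested) is below 0.05. In WT, 5 of the 9 markers were called, all lower, where 2.29% of the 22853 genes tested were called lower. For the Casp1 KO libraries as labelled, 2 of the 9 were called, both lower, against 2.03% of 22387 genes. The 2 comparisons shared no library. Without WT OIR replicate 3, the same 5 markers were called in WT, at log2 fold changes of -1.01 for Calb2 to -0.78 for Pcp4. The median log2 fold change of the 9 markers was -0.89 in WT, beside 0.04 for all genes tested, and -0.09 in Casp1 KO, beside -0.002 for all genes. Groups lay apart with OIR lower for 6 markers in WT, where 8.16% of all genes did so, and for 2 markers in Casp1 KO, where 8.58% did. With 3 libraries against 3, an exact permutation test cannot give a p below 0.1, and every marker whose groups lay apart reached that value.

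**Figure D1:**
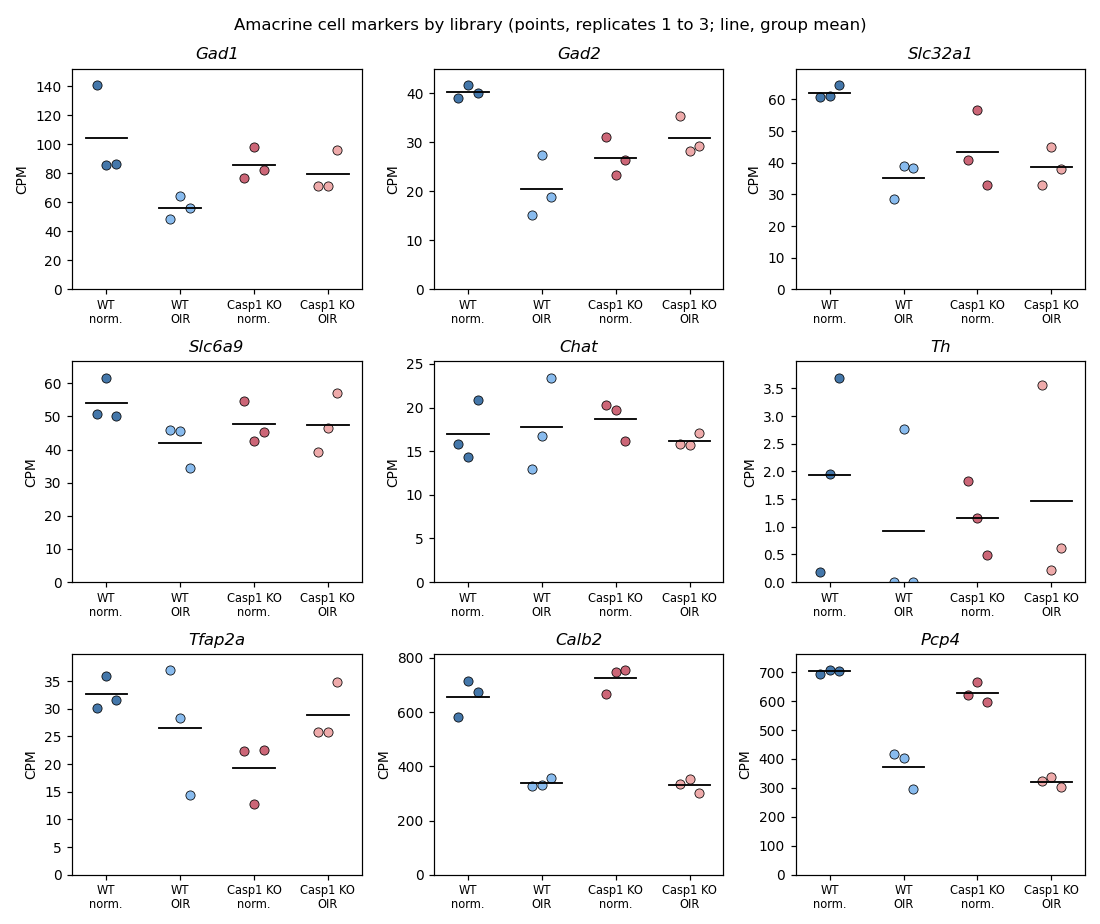
Level of each marker in CPM (vertical axis, from 0, scale differs by panel) in the 4 groups, with 1 point per library for replicates 1 to 3 and a line at the group mean. Calb2 and Pcp4 were lower in OIR in both genotypes, while the 3 WT normoxia points of Gad2 and Slc32a1 lay above those of all other groups.

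Gad1 and Gad2 encode the 2 glutamate decarboxylases that make GABA. Gad1 (ENSMUSG00000070880.10, chr2:70553072-70602014, plus strand, GRCm38) stood at 141, 85.4 and 86.3 CPM in WT normoxia and at 48.7, 64.1 and 56.3 CPM in WT OIR. All WT OIR libraries were below all WT normoxia libraries, and replicate 1 of WT normoxia was well above the other two. The fitted log2 fold change was -0.89 ± 0.16 (SE, n = 3 per group, edgeR adjusted p = 4.344e-06), which corresponds to a level that fell by 46.1%. Without that high library it was -0.62 (edgeR adjusted p = 0.04713). Among the libraries labelled Casp1 KO, Gad1 stood at 76.9, 97.9 and 82.3 CPM in normoxia and at 71.1, 71.2 and 96.0 CPM in OIR. Those groups overlapped, with a log2 fold change of -0.09 ± 0.13 and a 95% interval of -0.35 to 0.16 (edgeR adjusted p = 0.762).

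Gad2 (chr2:22622205-22693874, plus strand) stood at 39.1, 41.7 and 40.01 CPM in WT normoxia and at 15.2, 27.4 and 18.9 CPM in WT OIR. The WT normoxia libraries lay within a few CPM of each other and the OIR libraries were all lower, at -0.98 ± 0.22 (SE, n = 3 per group, edgeR adjusted p = 0.0007346) on the log2 scale. With the Casp1 KO label, the values were 30.99, 23.2 and 26.3 CPM in normoxia and 35.4, 28.3 and 29.2 CPM in OIR. The groups overlapped here too, with a log2 fold change of 0.21 ± 0.21 and a 95% interval of -0.20 to 0.62 (edgeR adjusted p = 0.6707).

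Slc32a1 encodes the vesicular transporter that loads both GABA and glycine into synaptic vesicles, and so marks inhibitory neurons of either kind. It is a compact gene of 4.98 kb with 2 exons (chr2:158610767-158615748, plus strand). WT normoxia held 60.7, 61.0 and 64.6 CPM and WT OIR held 28.7, 39.0 and 38.3 CPM. The OIR libraries were again all lower, at -0.82 ± 0.19 (SE, n = 3 per group, edgeR adjusted p = 0.0007551) on the log2 scale. The libraries labelled Casp1 KO held 40.8, 56.6 and 32.8 CPM in normoxia and 32.9, 44.9 and 38.0 CPM in OIR. These overlapped, with a log2 fold change of -0.15 ± 0.18 and a 95% interval of -0.50 to 0.20 (edgeR adjusted p = 0.7247). An antisense gene, Gm14205, shares 697 exon bases with Slc32a1 on the opposite strand, and whether the counting used strand was not given.

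Promoter windows of the 3 GABA genes that fell together in WT, and of Pcp4, which fell in both genotypes, are printed to show the sequence at their start sites. Each holds 250 bases before and 50 bases from the start site on, 5′ to 3′ along the gene, from RefSeq on GRCm38.p6. Capitals mark ACGTG or GCGTG on either strand (the other strand reads CACGT or CACGC), the core letters of the hypoxia response element that hypoxia-inducible factors bind. The windows are chr2:70561879-70562178 for Gad1, chr2:22622077-22622376 for Gad2, chr2:158610508-158610807 for Slc32a1 and chr16:96467356-96467655 for Pcp4, all on the plus strand.
Gad1: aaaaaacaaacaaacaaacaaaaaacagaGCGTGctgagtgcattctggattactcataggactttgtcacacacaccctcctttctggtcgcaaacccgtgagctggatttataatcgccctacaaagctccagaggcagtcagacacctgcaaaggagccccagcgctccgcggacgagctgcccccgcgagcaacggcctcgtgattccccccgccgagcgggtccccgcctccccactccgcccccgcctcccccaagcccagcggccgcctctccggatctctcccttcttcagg
Gad2: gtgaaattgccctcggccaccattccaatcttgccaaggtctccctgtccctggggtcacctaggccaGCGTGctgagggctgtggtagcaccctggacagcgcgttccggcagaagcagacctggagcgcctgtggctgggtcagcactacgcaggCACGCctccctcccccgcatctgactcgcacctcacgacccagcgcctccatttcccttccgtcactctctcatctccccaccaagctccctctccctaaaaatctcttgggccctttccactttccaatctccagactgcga
Slc32a1: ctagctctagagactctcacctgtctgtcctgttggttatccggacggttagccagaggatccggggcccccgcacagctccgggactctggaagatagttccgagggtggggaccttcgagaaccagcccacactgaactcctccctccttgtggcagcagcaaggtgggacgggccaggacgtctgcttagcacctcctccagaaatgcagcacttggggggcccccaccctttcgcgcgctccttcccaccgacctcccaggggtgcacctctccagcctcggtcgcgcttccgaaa
Pcp4: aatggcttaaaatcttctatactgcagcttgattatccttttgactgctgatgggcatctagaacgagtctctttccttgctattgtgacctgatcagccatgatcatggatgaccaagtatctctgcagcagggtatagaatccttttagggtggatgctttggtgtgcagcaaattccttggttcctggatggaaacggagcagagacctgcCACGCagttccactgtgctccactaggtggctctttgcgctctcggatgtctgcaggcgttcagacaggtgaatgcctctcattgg

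The Gad1 window held 1 match, beginning 221 bases before the start site, which lies inside the annotated gene rather than at its first base. That of Gad2 held 2 matches, 182 and 93 bases before it, that of Pcp4 held 1 match 36 bases before it, and that of Slc32a1 held none. Of all 32851 windows of this length, 43.8% held at least 1 match. A window was listed for 8 of the 9 markers, 11 windows in all, and 8 of the 11 held a match. By gene, 6 of the 8 markers held a match, and Slc6a9 had several windows. The GC content was 60.0% for Gad1, 61.3% for Gad2, 63.3% for Slc32a1 and 48.7% for Pcp4, beside a median of 52.7% over all windows. Both motifs contain CG, and the shares were not adjusted for GC content. In Chat, 2 of 3 matches were the same letters read on both strands. A match is only a description of letters, and the markers that fell in WT included windows with and without one.

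Slc6a9 encodes the glycine transporter GlyT1, which glycinergic amacrine cells and Müller glia use to take glycine up. It stood at 50.8, 61.7 and 50.01 CPM in WT normoxia and at 46.0, 45.5 and 34.5 CPM in WT OIR. Although the groups lay apart with OIR lower, the log2 fold change of -0.39 ± 0.18 (SE) did not pass (edgeR adjusted p = 0.3329). In the libraries labelled Casp1 KO, it stood at 54.7, 42.7 and 45.4 CPM in normoxia and at 39.1, 46.4 and 56.97 CPM in OIR, a log2 fold change of 0.01 ± 0.16 with a 95% interval of -0.32 to 0.33. The sign of that value changed with the scaling. The gene (chr4:117834506-117875198, plus strand) shares exon bases with Ccdc24, Gm17114 and B4galt2 on the opposite strand, and B4galt2 spans its 3′ end, where 3′ tags fall.

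Chat encodes choline acetyltransferase, which makes acetylcholine in starburst amacrine cells. It stood at 15.8, 14.4 and 20.9 CPM in WT normoxia and at 12.98, 16.8 and 23.4 CPM in WT OIR, so that the groups overlapped fully. The log2 fold change was 0.07 ± 0.28 with a 95% interval of -0.47 to 0.61. That interval does not reach the fall fitted for Gad1, Gad2 or Slc32a1, but it overlaps the 95% interval of Slc32a1, -1.18 to -0.46. Under the Casp1 KO label, Chat stood at 20.2, 19.8 and 16.2 CPM in normoxia and at 15.8, 15.8 and 17.1 CPM in OIR. Its log2 fold change there was -0.20 ± 0.27 (95% interval -0.72 to 0.33, edgeR adjusted p = 0.7471). Slc18a3, which loads acetylcholine into vesicles, lies inside the Chat gene (chr14:32408203-32465989, minus strand) on the same strand but shares no exon base with it. The log2 fold change of Slc18a3 was -0.81 ± 0.33 in WT (edgeR adjusted p = 0.1876) and -0.42 ± 0.30 in Casp1 KO (edgeR adjusted p = 0.565).

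Th encodes tyrosine hydroxylase, the rate-limiting enzyme of dopamine synthesis, and marks the sparse dopaminergic amacrine cells. It had few counts and varied widely within groups, with 1, 44 and 17 counts in WT normoxia and 0, 15 and 0 counts in WT OIR. The libraries labelled Casp1 KO held 10, 4 and 2 counts in normoxia and 16, 1 and 3 counts in OIR. A count of 0 allows up to 3 counts, or 0.741 CPM in WT OIR replicate 1 and 0.530 CPM in WT OIR replicate 3. The log2 fold changes of -1.03 ± 1.06 in WT and 0.32 ± 1.13 in Casp1 KO had 95% intervals of -3.12 to 1.05 and of -1.88 to 2.53, so that no change of Th could be told from the spread between libraries.

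Tfap2a encodes the transcription factor AP-2 alpha, which amacrine cells of several kinds express. It stood at 30.2, 36.0 and 31.5 CPM in WT normoxia and at 37.0, 28.4 and 14.4 CPM in WT OIR. The WT OIR libraries were widely spread, with replicate 3 lowest and replicate 1 above all of normoxia, and the log2 fold change of -0.32 ± 0.22 did not pass (edgeR adjusted p = 0.5536). For the Casp1 KO libraries as labelled, Tfap2a stood at 22.4, 12.8 and 22.5 CPM in normoxia and at 25.8, 25.8 and 34.8 CPM in OIR. Here OIR was higher without overlap, as it was for 8.56% of all genes, at 0.58 ± 0.23 on the log2 scale (edgeR adjusted p = 0.1491). The gene (chr13:40715302-40738376, minus strand) shares exon bases with 3 antisense genes.

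Calb2 encodes calretinin, a calcium-binding protein that marks AII and other amacrine cells and part of the retinal ganglion cells. It stood at 582, 715 and 676 CPM in WT normoxia and at 326, 332 and 358 CPM in WT OIR. All OIR libraries were far below all normoxia libraries, at -0.97 ± 0.12 (SE, n = 3 per group, edgeR adjusted p = 1.399e-12) on the log2 scale. Among the libraries labelled Casp1 KO, the values were 668, 749 and 755 CPM in normoxia and 336, 351 and 301 CPM in OIR. The log2 fold change of -1.12 ± 0.08 (SE, n = 3 per group, edgeR adjusted p = 1.734e-43) had a p-value that ranked at place 5 among those of the 22387 genes tested there. The gene lies at chr8:110137502-110168210 on the minus strand, and no other annotated gene overlaps it.

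Pcp4 encodes a small calmodulin-binding protein of Purkinje cells that is also found in inner retinal neurons. It stood at 695, 707 and 705 CPM in WT normoxia and at 418, 404 and 295 CPM in WT OIR. The normoxia libraries were nearly equal and the OIR libraries all lower, at -0.93 ± 0.12 (SE, n = 3 per group, edgeR adjusted p = 1.090e-11) on the log2 scale. With the Casp1 KO label, it stood at 623, 667 and 596 CPM in normoxia and at 323, 337 and 304 CPM in OIR, again without overlap. The log2 fold change was -0.96 ± 0.08 (SE, n = 3 per group, edgeR adjusted p = 1.977e-30). Pcp4 (chr16:96467606-96525793, plus strand) shares 243 exon bases with Igsf5 on the same strand, and reads in them can be split or lost between the 2 genes.

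Calb2 and Pcp4 together took 68.9% to 85.7% of the counts of the 9 markers, so that the summed level of the markers follows mainly these 2 genes. The 9 markers took 0.161% to 0.170% of all counts in WT normoxia and 0.0816% to 0.0990% in WT OIR. In the libraries labelled Casp1 KO, they took 0.153% to 0.170% in normoxia and 0.0880% to 0.0918% in OIR. All 6 OIR libraries were below all 6 normoxia libraries in this share.

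**Figure D2:**
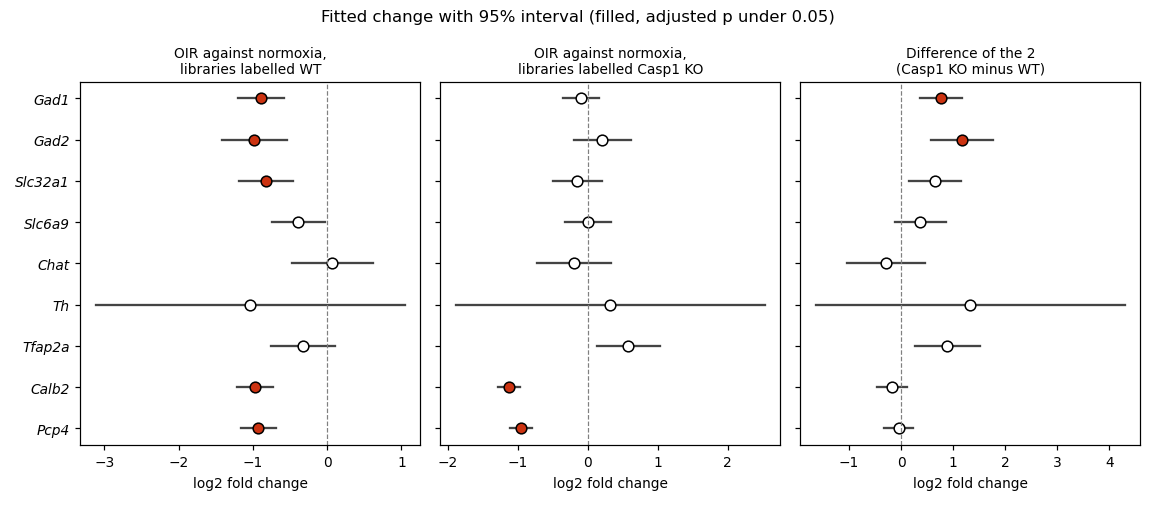
Fitted log2 fold change (horizontal axis, point) with its 95% interval (line) for each marker, for OIR against normoxia in the libraries labelled WT (left), the same in those labelled Casp1 KO (middle), and the difference of the 2 changes (right); filled points have an adjusted p below 0.05 and the horizontal scales differ. There 5 markers are filled on the left, Calb2 and Pcp4 in the middle, and Gad1 and Gad2 on the right.

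The difference of the OIR effect between genotypes was tested over all 12 libraries as an interaction, in which a positive value means that OIR lowered a gene less, or raised it more, in the libraries labelled Casp1 KO. Gad1 (0.77 ± 0.21 on the log2 scale, edgeR adjusted p = 0.02138) and Gad2 (1.16 ± 0.30, edgeR adjusted p = 0.01836) were called, both higher, so 2 of 9 markers were called higher where 0.604% of the 24484 genes tested were. Slc32a1 had a difference of the same sign, 0.64 ± 0.26, which did not pass (edgeR adjusted p = 0.2906). Tfap2a had 0.88 ± 0.32 (edgeR adjusted p = 0.1964, and 1.19 with adjusted p = 0.04566 without WT OIR replicate 1) and Slc6a9 had 0.37 ± 0.25 (edgeR adjusted p = 0.6808). For Calb2 the difference was -0.18 ± 0.14 with a 95% interval of -0.46 to 0.10, and for Pcp4 it was -0.05 ± 0.14 with an interval of -0.33 to 0.23. The intervals of Calb2 and Pcp4 do not reach the differences fitted for Gad1 and Gad2. The calls of Gad1 and Gad2 were fragile. With DESeq2 or with filterByExpr, which removes low genes, Gad2 was called and Gad1 was not (adjusted p = 0.1551 and 0.1405), and neither was called without Casp1 KO normoxia replicate 3 (edgeR adjusted p = 0.0788 for Gad1 and 0.05725 for Gad2). Gad1 was also lost without WT normoxia replicate 1 (0.51, edgeR adjusted p = 0.4627), WT OIR replicate 1 (0.08002), Casp1 KO normoxia replicate 1 (0.1279) or Casp1 KO OIR replicate 3 (0.1983). Gad2 was also lost without WT OIR replicate 1 (edgeR adjusted p = 0.09565), Casp1 KO normoxia replicate 2 (0.08243) or Casp1 KO OIR replicate 1 (0.08054). Without WT OIR replicate 3, the library that stood apart, both were called (edgeR adjusted p = 0.008026 for Gad1 and 0.02113 for Gad2).

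The levels behind this difference were also compared within each condition. In normoxia, the libraries labelled Casp1 KO held 30.99, 23.2 and 26.3 CPM of Gad2 beside 39.1, 41.7 and 40.01 CPM in WT, a log2 difference of -0.57 ± 0.19 (edgeR adjusted p = 0.1434). Slc32a1 differed by -0.52 ± 0.15 (edgeR adjusted p = 0.06834) and Tfap2a by -0.75 ± 0.22 (edgeR adjusted p = 0.05263). No marker was called between the genotypes in normoxia with edgeR, where 0.560% of 22480 genes were called lower. An unadjusted edgeR p below 0.05 was found for 6 of the 9, 5 lower and 1 higher. The highest of these, 0.04038 for Calb2, ranked at place 1678 of all genes tested, so many other genes lay below 0.05 too. DESeq2 called 2 of the 9, Gad2 (adjusted p = 0.03312) and Tfap2a (adjusted p = 0.02287), both lower, where it called 0.992% of all genes lower. Pcp4, Gad2, Slc32a1 and Tfap2a were lower without overlap in the libraries labelled Casp1 KO, 4 of 9 where 6.53% of all genes were. Without Casp1 KO normoxia replicate 2, the library highest in Slc32a1, that gene was called at -0.74 (edgeR adjusted p = 0.00765).

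In OIR, which like normoxia reuses libraries of the interaction, Gad2 was higher in the libraries labelled Casp1 KO, the other way than in normoxia. Gad1 was higher too, while in normoxia its groups overlapped (-0.27 ± 0.12, edgeR adjusted p = 0.4475). Gad1 stood at 71.1, 71.2 and 96.0 CPM in the libraries labelled Casp1 KO beside 48.7, 64.1 and 56.3 CPM in WT, a log2 difference of 0.49 ± 0.17 (edgeR adjusted p = 0.1948). For Gad2 it was 0.58 ± 0.24 (edgeR adjusted p = 0.3794). Both were higher without overlap, 2 of 9 where 5.41% of all genes were. No marker was called with edgeR or DESeq2, where edgeR called 0.263% of 22774 genes higher. Gad1 and Gad2, 2 of the 9, had an unadjusted edgeR p below 0.05. That of Gad2, 0.01444, ranked at place 867 of all genes tested. Without WT OIR replicate 3, Pcp4 was called lower at -0.34 (edgeR adjusted p = 0.03446). That library was the lowest of its group in Pcp4, and without it 352 of 22320 genes were called lower.

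Genes of the amacrine pathways other than the 9 markers were counted over 8 lists holding 101 of them. These lists, too, were chosen with earlier results of these data known. A call in a single genotype is not a difference between genotypes, which only the interaction tests. In WT, 26 of the 99 tested were called lower in OIR and 2 higher, with a median log2 fold change of -0.44. Under the Casp1 KO label, 12 of 100 were called lower and 8 higher, with a median of -0.08. Of all genes tested, 1.58% were called higher in WT and 2.61% in Casp1 KO, beside the shares called lower given above. DESeq2 called fewer of the listed genes, 20 lower and 1 higher in WT, and 10 lower and 6 higher in Casp1 KO. Among all genes it called 413 of 22853 lower in WT and 380 of 22387 in Casp1 KO. In the interaction edgeR called 7 of 100 higher, with a median of 0.28, and called 0 lower (4 with an unadjusted p below 0.05, and 1 with DESeq2). The medians over all genes tested were 0.04, -0.002 and -0.04.

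In the list of GABA and glycine synthesis and transport, which includes Gad1, Gad2, Slc32a1 and Slc6a9, 6 of 9 genes were called lower in WT and 1 of 9 in Casp1 KO. Slc6a11, a GABA transporter, stood at 131, 143 and 137 CPM in WT normoxia and at 77.9, 85.4 and 80.1 CPM in WT OIR, a log2 fold change of -0.77 ± 0.15 (edgeR adjusted p = 3.301e-05). For the Casp1 KO libraries as labelled, it stood at 104, 114 and 113 CPM in normoxia and at 108, 118 and 86.0 CPM in OIR, and its interaction was called at 0.67 ± 0.19 (edgeR adjusted p = 0.04048). Abat, which breaks GABA down, was the gene called in Casp1 KO, at -0.71 ± 0.15 (edgeR adjusted p = 0.0001143). It was called lower in WT too, at -0.57 ± 0.17 (edgeR adjusted p = 0.02536). Of 23 GABA and glycine receptor genes, 6 were called lower in WT and 2 in Casp1 KO, and 0 were called in the interaction by edgeR or DESeq2 (6 with an unadjusted p below 0.05 in edgeR). Glra1, a glycine receptor subunit, was called in WT at -0.96 ± 0.21 (edgeR adjusted p = 0.0004439). Gabbr2, a GABA-B receptor subunit, was called in Casp1 KO at -0.53 ± 0.15 (edgeR adjusted p = 0.01288). Its fall in WT was of like size, -0.54 ± 0.18 (edgeR adjusted p = 0.0583), with an interaction of -0.01 ± 0.23.

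In the acetylcholine list, 4 of 18 genes were called lower in WT, and 2 lower and 2 higher in Casp1 KO, with Chat called in neither. Chrna6, a nicotinic receptor subunit, stood at 92.5, 120.2 and 90.9 CPM in WT normoxia and at 48.2, 56.7 and 44.7 CPM in WT OIR, and was called in both genotypes (-1.04 ± 0.16 and -1.29 ± 0.15, edgeR adjusted p = 5.175e-08 and 4.278e-16). Chrnb3, its partner subunit, was also called in both (-1.37 ± 0.24 and -1.17 ± 0.22, edgeR adjusted p = 1.582e-06 and 7.948e-06). These 2 subunits are also known in retinal ganglion cells. Slc5a7, the choline transporter of cholinergic cells, was called higher in Casp1 KO (0.81 ± 0.21, edgeR adjusted p = 0.005808), as was Sox2 (0.56 ± 0.16, edgeR adjusted p = 0.01334), a transcription factor of Müller glia as well as of starburst cells. In the dopamine list of 11 genes, Drd2, a dopamine receptor, was called lower in WT (-0.67 ± 0.19, edgeR adjusted p = 0.01666). DESeq2 called 0 genes of this list lower in WT. Drd4, a dopamine receptor that photoreceptors express, was called higher in both genotypes, at 1.09 ± 0.12 in WT (edgeR adjusted p = 1.977e-17) and 0.67 ± 0.07 in Casp1 KO (edgeR adjusted p = 1.043e-18).

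Among 24 amacrine transcription factors, which include Tfap2a, 3 of 22 tested were called lower in WT and 1 of 23 was called higher in Casp1 KO. Pax6, needed for amacrine and other inner retinal cells, stood at 157, 128 and 157 CPM in WT normoxia and at 86.9, 108 and 89.2 CPM in WT OIR (-0.64 ± 0.15, edgeR adjusted p = 0.0007671). Ebf1 was called lower in WT too (-0.74 ± 0.18, edgeR adjusted p = 0.003111), and the gene called in Casp1 KO was Neurod1, higher by 0.24 ± 0.07 (edgeR adjusted p = 0.01542). The interaction called 1 factor, Tfap2b, the paralogue of Tfap2a, at 0.58 ± 0.16 (edgeR adjusted p = 0.03038). Tfap2b stood at 289, 302 and 293 CPM in WT normoxia and at 220.4, 249 and 201 CPM in WT OIR. Among the libraries labelled Casp1 KO, it stood at 224, 251 and 219 CPM in normoxia and at 260.1, 265 and 261 CPM in OIR.

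Of 9 genes for amacrine neuropeptides and the vesicular glutamate transporter 3, 2 were called lower in WT, and 2 lower and 1 higher in Casp1 KO. Cck, the cholecystokinin precursor, stood at 21.5, 28.9 and 16.3 CPM in WT normoxia and at 3.43, 2.03 and 1.999 CPM in WT OIR (-3.21 ± 0.37, edgeR adjusted p = 1.019e-14). It fell less in the libraries labelled Casp1 KO, from 12.03, 10.2 and 18.8 CPM to 4.002, 6.79 and 7.20 CPM (-1.17 ± 0.36, edgeR adjusted p = 0.03166), and the interaction was called (2.01 ± 0.52, edgeR adjusted p = 0.01683). Slc17a8, the vesicular glutamate transporter 3 of an amacrine subtype, stood at 12.97, 20.6 and 14.4 CPM in WT normoxia and at 6.86, 7.73 and 5.09 CPM in WT OIR (-1.31 ± 0.35, edgeR adjusted p = 0.007443). With the Casp1 KO label, it stood at 6.02, 5.23 and 6.04 CPM in normoxia and at 7.11, 9.20 and 10.9 CPM in OIR, and its interaction was called (1.95 ± 0.53, edgeR adjusted p = 0.02916). In Casp1 KO, Crh was called lower (-1.63 ± 0.38, edgeR adjusted p = 0.0009839) and Npy higher (0.71 ± 0.22, edgeR adjusted p = 0.02793). DESeq2 called 1 gene of this list lower and 0 higher there.

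The AII amacrine list of 6 genes, which includes Calb2 and Slc6a9, had 3 called lower in WT, and 2 lower and 1 higher in Casp1 KO. Dner, a neuronal Notch-related receptor, was called lower in both (-0.54 ± 0.15 and -0.62 ± 0.11, edgeR adjusted p = 0.009669 and 5.660e-06), and Dab1, a reelin adaptor, in WT (-0.77 ± 0.20, edgeR adjusted p = 0.0043). Prox1, a transcription factor of AII and horizontal cells, stood at 175, 166 and 159 CPM in Casp1 KO normoxia and at 226, 224 and 249 CPM in Casp1 KO OIR (0.50 ± 0.10, edgeR adjusted p = 1.732e-05), and its interaction was called (0.72 ± 0.16, edgeR adjusted p = 0.002314). Of 12 genes for calcium-linked proteins, which include Calb2 and Pcp4, 7 were called lower and 1 higher in WT, and 6 lower and 2 higher in Casp1 KO. Pvalb, parvalbumin, was called lower in both (-1.82 ± 0.26 and -1.17 ± 0.28, edgeR adjusted p = 2.281e-09 and 0.001603), and Pcp4l1, a relative of Pcp4, was called higher in both (0.49 ± 0.15 and 0.50 ± 0.12, edgeR adjusted p = 0.03341 and 0.001121). DESeq2 called 0 genes of this list higher in WT and 2 in Casp1 KO. Necab2 was called lower in Casp1 KO (-1.19 ± 0.24, edgeR adjusted p = 5.480e-05). Cabp1, caldendrin, was called lower in WT (-1.31 ± 0.16, edgeR adjusted p = 4.102e-13), and its interaction was called (0.95 ± 0.21, edgeR adjusted p = 0.001484). Ncald, neurocalcin, was called higher in Casp1 KO (0.36 ± 0.10, edgeR adjusted p = 0.00961) and in the interaction (0.74 ± 0.17, edgeR adjusted p = 0.003827).

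**Figure D3:**
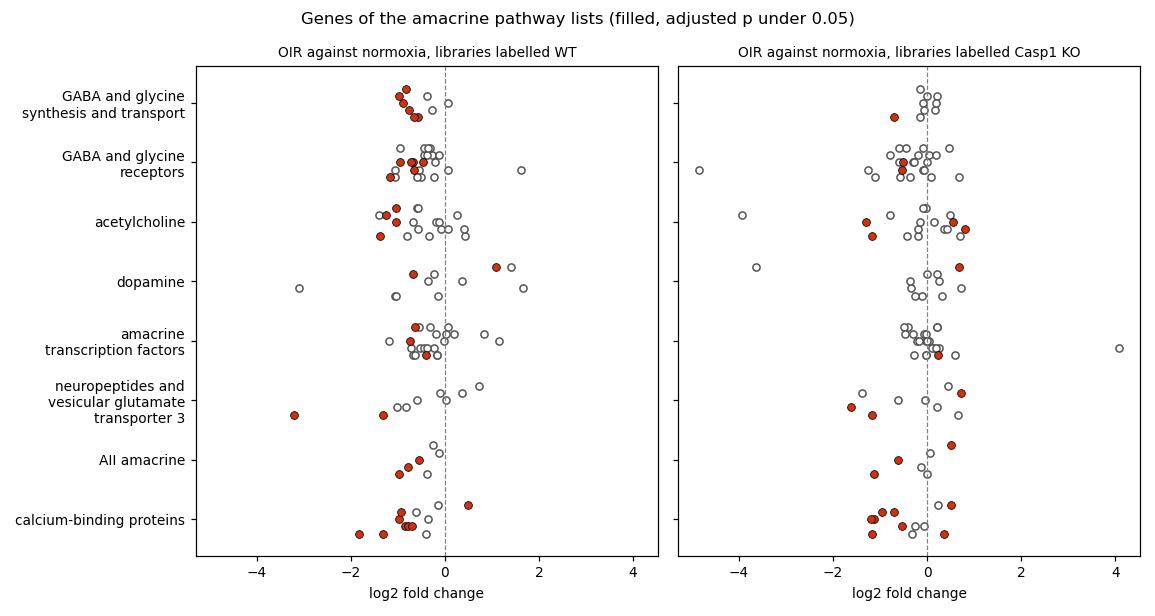
Log2 fold change of OIR against normoxia (horizontal axis) for every tested gene of the 8 amacrine lists (rows, markers included), in the libraries labelled WT (left) and Casp1 KO (right); filled points have an adjusted p below 0.05 and vertical offsets only separate points. In the row of GABA and glycine synthesis and transport, 6 of 9 points are filled on the left and 1 of 9 on the right.

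Markers of other retinal cells moved along with these genes. In whole retina, fewer cells of a type and less RNA per cell cannot be told apart. The retinal ganglion cell list, whose cells also express Calb2 and Pcp4, had 7 of 10 genes called lower in WT and 6 of 10 in Casp1 KO, and 0 called in the interaction by edgeR or DESeq2 (1 with an unadjusted p below 0.05 in edgeR). Its summed level went from 2760 to 2968 CPM in WT normoxia to 1369 to 1706 CPM in WT OIR, and from 3012 to 3238 CPM to 1644 to 1706 CPM in the libraries labelled Casp1 KO. One of its genes, Pou4f3, was at 0 in WT normoxia. The part of ganglion cells in the fall of Calb2 and Pcp4 was not tested.

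Müller glia markers moved in opposite directions, with 3 of 6 genes called lower in WT, 5 of 6 called higher in Casp1 KO and 4 of 6 called higher in the interaction. Their summed level was 2697 to 2845 CPM in WT normoxia and 2115 to 2242 CPM in WT OIR, and 1926 to 2076 CPM and 2788 to 3009 CPM in the libraries labelled Casp1 KO. The horizontal cell list had 2 of 6 genes called lower in WT, 1 of 6 in Casp1 KO and 1 of 6 higher in the interaction. Its sum was 304 to 325 CPM in WT normoxia and 199 to 225 CPM in WT OIR, and 224 to 248 CPM and 226 to 247 CPM in the libraries labelled Casp1 KO. WT normoxia was highest in this sum, as it was for Gad2 and Slc32a1. In the bipolar list 1 of 8 genes was called lower in WT and 1 of 8 higher in the interaction. Lens markers (4 of 6) and retinal pigment epithelium markers (4 of 6) were called higher in Casp1 KO OIR, with lens sums of 353 to 368 CPM in normoxia and 603 to 678 CPM in OIR. Pigment epithelium sums were 945 to 964 CPM and 1338 to 1414 CPM in those groups. Rlbp1 is in both the pigment epithelium list and the Müller glia list, so these lists are not fully separate. Rod sums lay between 33918 and 41321 CPM over all libraries, while 1 of 6 rod genes was called higher in WT, and 3 higher and 1 lower in Casp1 KO. Of 5 cone genes 1 was called lower in WT, and 1 lower and 2 higher in Casp1 KO. Red blood cell genes were called higher in WT OIR (4 of 5), with sums of 121 to 146 CPM in normoxia and 90.9 to 397 CPM in OIR. In the interaction, 4 of 6 lens genes and 2 of 6 pigment epithelium genes were called higher and 2 of 5 red blood cell genes lower. The part of any of these cells in the results for Gad1, Gad2 and Slc32a1 was not tested.

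**Figure D4:**
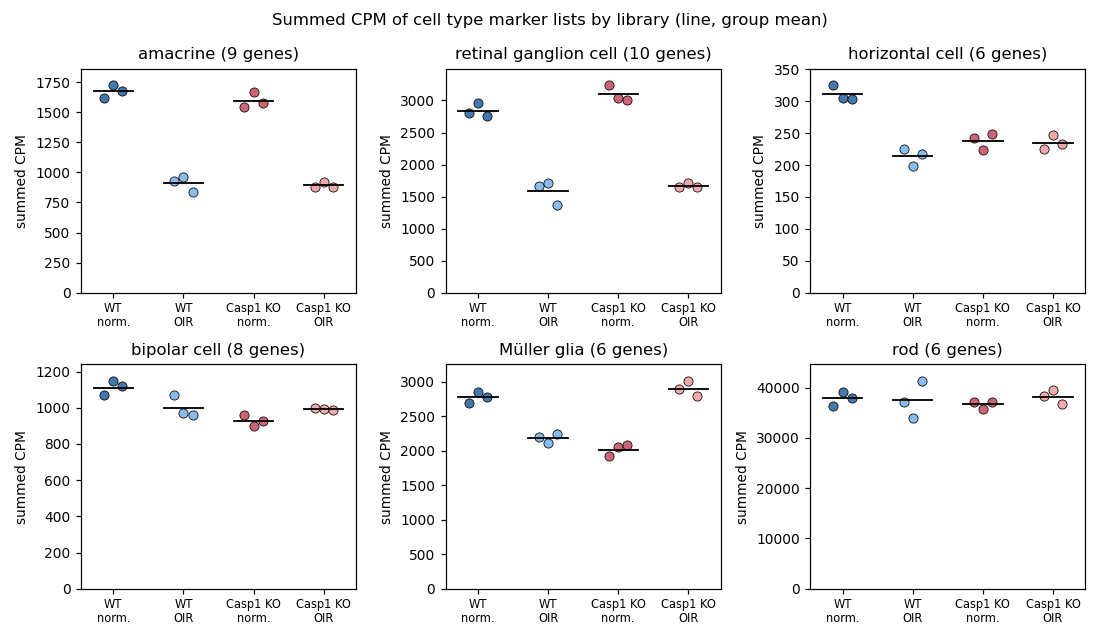
Summed CPM (vertical axis, from 0, scale differs by panel) of the amacrine markers and of 5 other cell type lists in each library, with a line at the group mean. The amacrine sum, which follows mainly Calb2 and Pcp4, and the ganglion cell sum fell in OIR in both genotypes. The Müller glia sum fell in the libraries labelled WT and rose in those labelled Casp1 KO.

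The genes whose level over the 12 libraries was most like that of Slc32a1, among 9427 other genes with a mean of at least 10 CPM, were Mtmr4, Mfsd4a and Esrrg. Their Pearson correlations of log2(CPM + 1) with Slc32a1 were 0.90, 0.88 and 0.88, over libraries that share groups and depth. Esrrg, which encodes the nuclear receptor ERR gamma, stood at 97.9, 99.5 and 104 CPM in WT normoxia and at 70.3, 80.5 and 78.5 CPM in WT OIR. In the libraries labelled Casp1 KO, it stood at 64.0, 90.6 and 72.9 CPM in normoxia and at 68.9, 76.0 and 75.3 CPM in OIR. As for Slc32a1, the WT normoxia libraries were the highest.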

How the data were processed

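Retinal RNA from 12 mouse samples was made into 3′ mRNA libraries with the Lexogen QuantSeq forward kit. The authors deposited 1 table of raw counts per gene, made by alignment to mm10 with STAR 2.7.5a and counting with HTSeq 0.6.1 per the labels and the submitters' processing notes; the strand setting, the annotation and the handling of ambiguous reads were not given in the sources used here. Deposited counts were not normalised. The 3′ tags come from transcript ends, so counts do not scale with transcript length.

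Groups were taken from the sample titles. Every gene with 1 count or more in a fit was tested with edgeR 4.0.16 in R 4.3.3 (TMM factors, glmQLFit and glmQLFTest, two-sided, Benjamini-Hochberg over all genes tested, threshold 0.05). Each comparison of 2 groups used its own 6 libraries, and the interaction of OIR and genotype used all 12. Standard errors were taken from the log2 fold change and the F statistic, and intervals are 95%. As the variance was almost wholly shared across genes, the intervals are as wide as for a normal distribution. Exact two-sided permutation tests used mean CPM over the 20 assignments. Promoters came from RefSeq (GRCm38.p6) and gene positions from GENCODE vM21 (GRCm38, the assembly also named mm10). No deposited column was left out. Scripts were tested on simulated counts. Alternatives were DESeq2 size factors, library size alone, the DESeq2 1.42.0 Wald test, filterByExpr, a replicate block, 1 fit of all 12 libraries and each library left out in turn. A thinned WT normoxia replicate 2 was added after the data were seen.

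The markers, the pathway lists and the cell type lists were chosen with earlier results of these data known. Of each pathway list, at most 2 genes a direction beside the markers were named in each comparison, those with the smallest p among the genes called. Some genes this rule picks are not reported here. The 3 genes most like Slc32a1 were named by correlation.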

Additional observations from a re-analysis of the deposited data

Results flagged for a closer look

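The effect of OIR on Gad1 and Gad2 differed between the genotypes as labelled, by the test of the interaction over all 12 libraries. The difference was 0.77 on the log2 scale for Gad1 and 1.16 for Gad2 (edgeR adjusted p = 0.02138 and 0.01836), with OIR lowering both genes in WT and leaving overlapping groups in the libraries labelled Casp1 KO. The direction rests on the labels, which the Casp1 counts went against.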

How the results depend on the processing

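The count of markers called stayed at 5 in the WT comparison of OIR with normoxia and at 2 in the Casp1 KO comparison under every alternative and every library left out. The p-values themselves were much larger with filterByExpr. In WT the edgeR adjusted p was then 8.903e-05 for Calb2, 0.0004087 for Pcp4, 0.01103 for Gad1, 0.01623 for Gad2 and 0.009595 for Slc32a1. For Casp1 KO it was 8.496e-15 for Calb2 and 7.743e-13 for Pcp4. The interaction called 1 marker with DESeq2 and 1 with filterByExpr in place of 2, and 0 to 2 over the libraries left out in turn. Between genotypes in normoxia the count of 0 became 2 with DESeq2, 1 with WT normoxia replicate 2 thinned to the total of replicate 1 (chosen after seeing the data), and 0 to 1 over the libraries left out; in OIR it was 0 to 1 over those. The cause of these changes was not tested.

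With a replicate block the counts were 5, 2, 2, 0 and 0 for WT, Casp1 KO, the interaction, normoxia and OIR, and no call of a marker changed. Deviations of same-numbered replicates correlated at -0.066 to 0.233 between groups. These values show no clear pairing by number, but with 3 libraries a group they cannot exclude one. The block turned the log2 fold change of Th in Casp1 KO to -0.096.

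Of the marker changes, those that turned sign had not been called. Slc6a9 in Casp1 KO, near 0 throughout, was -0.0086 with DESeq2 size factors, -0.011 with library size alone, -0.0073 with DESeq2, -0.0066 with filterByExpr, -0.00095 with the replicate block and -0.0068 in the fit of all 12 libraries. Over the libraries left out, the log2 fold change in Casp1 KO ranged from -0.16 to 0.12 for Slc6a9, -0.26 to 0.0032 for Gad1, -0.31 to 0.068 for Slc32a1 and -1.41 to 0.83 for Th, and in WT from -0.18 to 0.24 for Chat. In the interaction it ranged from -0.19 to 0.039 for Pcp4 and from -0.40 to 6.93 for Th, whose other WT OIR libraries are at 0 so that the upper value depends on the prior count. Between genotypes in normoxia, Th ranged from -1.22 to 0.042. Between genotypes in OIR the ranges were -0.088 to 0.022 for Calb2, -0.0025 to 0.24 for Slc32a1, -0.16 to 0.43 for Tfap2a, -0.31 to 0.13 for Chat and -1.09 to 5.81 for Th.

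Th held 0 to 44 counts in a library and varied widely between libraries of a group.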
